A study of Mus musculus with 2 samples.

Results

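Blood cells carry a small set of well-known microRNAs (miRNAs), and 9 genes of this kind were followed in adrenal glands of 10-day-old mice, 3 of them erythroid (Mir144, Mir451a and Mir486) and 6 of them leukocyte genes (Mir142, Mir142b, Mir223, Mir150, Mir155 and Mir146b). The rule takes them by gene symbol from GENCODE M21, though the set was drawn up with earlier results of these data known, and they make up 9 of the 2202 miRNA genes counted. The glands came from male B6CASTF1/J mice, F1 hybrids of C57BL/6 and CAST/EiJ, with no treatment or second genotype named. The 1 group held 2 libraries, numbered as biological replicates and labelled as 2 different males under 1 donor entry. The sources used here do not say whether several glands went into a sample or whether blood was flushed out. No second condition was present, so the only comparison sets replicate 2 against replicate 1.

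A miRNA is a short RNA cut from a hairpin precursor. It guides Argonaute proteins to messenger RNAs that pair with its seed, bases 2 to 8 from its 5′ end. Mir144 and Mir451a are transcribed together in red cell precursors under the erythroid factor GATA1. The Mir451a hairpin is known for being cut by the Argonaute protein AGO2 in place of Dicer. Mir142 is expressed through nearly all blood lineages, Mir223 in neutrophils and monocytes, and Mir150 in mature lymphocytes. Mir155 rises when lymphocytes and macrophages are activated, and Mir146b is induced by NF-kB signalling.

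Mature sequences of 8 of the 9 members were found in RefSeq (GRCm38.p6), and Mir486 is named only. They are shown because the seed defines what each miRNA can pair with. Capitals mark the seed, and the strand meant is that of the gene. Of Mir150 only the 3p arm was listed, so the seed of its 5p arm is not shown.
mmu-miR-451a: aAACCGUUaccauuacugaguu
mmu-miR-144-3p: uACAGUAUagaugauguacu
mmu-miR-144-5p: gGAUAUCAucauauacuguaagu
mmu-miR-142a-3p: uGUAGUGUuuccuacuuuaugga
mmu-miR-142a-5p: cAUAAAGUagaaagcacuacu
mmu-miR-142b: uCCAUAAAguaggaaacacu
mmu-miR-223-3p: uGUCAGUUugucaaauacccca
mmu-miR-150-3p: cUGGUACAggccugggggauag
mmu-miR-155-5p: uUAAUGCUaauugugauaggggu
mmu-miR-146b-5p: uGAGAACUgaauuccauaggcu
mmu-miR-146a-5p: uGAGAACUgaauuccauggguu

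The 13 mature sequences listed for the members carried 13 distinct seeds. Only that of miR-146b-5p was shared with another of the 1738 mature entries, miR-146a-5p, the product of Mir146, which is printed for that reason. The miR-146b-5p sequence differed from the Mir146 hairpin at 2 bases. Every other listed mature sequence of a member differed at 3 or more bases from the nearest other hairpin of the table. Mir486 and the unlisted arm of Mir150 had no sequence to compare, so neither their seeds nor their nearest hairpins were checked. The counts are per gene, so the arms of one hairpin are not separated.

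Several members lie opposite another miRNA gene, and these hairpins are shown because the overlap decides which count can be used. Mir451a lies at chr11:78073170-78073241 on the plus strand and Mir451b on the minus strand of the same 72 bases. Mir142 lies at chr11:87756864-87756927 on the plus strand, inside Mir142b at chr11:87756841-87756955 on the minus strand. Capitals mark the mature sequences. All coordinates are of mm10, which is GRCm38.
Mir451a hairpin: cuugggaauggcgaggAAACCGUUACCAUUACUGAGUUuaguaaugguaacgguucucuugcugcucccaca
Mir451b hairpin: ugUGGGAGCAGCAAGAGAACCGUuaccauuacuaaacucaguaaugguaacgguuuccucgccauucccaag
Mir144 hairpin: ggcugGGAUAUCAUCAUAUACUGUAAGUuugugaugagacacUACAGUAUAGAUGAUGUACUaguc
Mir142 hairpin: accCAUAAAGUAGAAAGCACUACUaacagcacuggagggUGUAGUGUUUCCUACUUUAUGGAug
Mir142b hairpin: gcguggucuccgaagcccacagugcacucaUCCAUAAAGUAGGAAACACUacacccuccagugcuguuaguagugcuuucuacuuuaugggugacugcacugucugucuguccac

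The Mir451a hairpin has 1 listed mature sequence, at bases 17 to 38, while Mir144 has 2, 1 on each arm. In the fold predicted with RNAfold, the loop of Mir451a covered bases 35 to 38, so 4 bases of its mature sequence lay in the loop. No mature sequence of Mir144, Mir142, Mir142b, Mir223, Mir155 or Mir146b reached the loop of its own predicted fold. The mature miR-451a differed at 4 bases from the closest stretch of the Mir451b hairpin. The mature miR-142a-5p differed at 3 bases and miR-142a-3p at 4 bases from the Mir142b hairpin.

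Levels are CPM, each gene's own-strand reads scaled to a common total of reads assigned to miRNA genes, which was 2843734 in replicate 1 and 3080062 in replicate 2. Those reads were 37.9% and 34.6% of each file, and a further 27.5% and 25.9% mapped to several places and were assigned to no gene. The listed mature sequences are 20 to 23 bases long, so CPM was compared between genes without division by hairpin length. The limit set by a count of 0, taken as 3 counts, was 1.05 CPM for replicate 1 and 0.974 CPM for replicate 2. Intervals are 95% exact intervals, and like these limits they cover counting error only. The liver miRNA Mir122 stood at 29424 CPM in replicate 1 and 97850 CPM in replicate 2, and the endothelial Mir126a at 84263 and 45250 CPM. Mir375, known from endocrine cells, was at 34145 and 34383 CPM.

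All 9 members together took 0.176% of replicate 1 (5017 reads) and 0.187% of replicate 2 (5760 reads). Of the 9, 7 reached at least 1 CPM in both libraries, against 441 of all 2202 genes. Mir150 had the highest mean, 539.1 ± 349.6 CPM (SD, n = 2), at rank 119 of all genes, followed by Mir451a at rank 132 and Mir142 at rank 135. The order differed by library. In replicate 1 it ran from Mir451a through Mir142, Mir150, Mir155, Mir223 and Mir144 to Mir486, and in replicate 2 Mir150 was highest and Mir451a came after Mir142 and Mir155. The intervals of Mir223 and Mir144 overlapped in replicate 1, as did those of Mir144 and Mir486, and of Mir155 and Mir451a, in replicate 2.

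**Figure D1:**
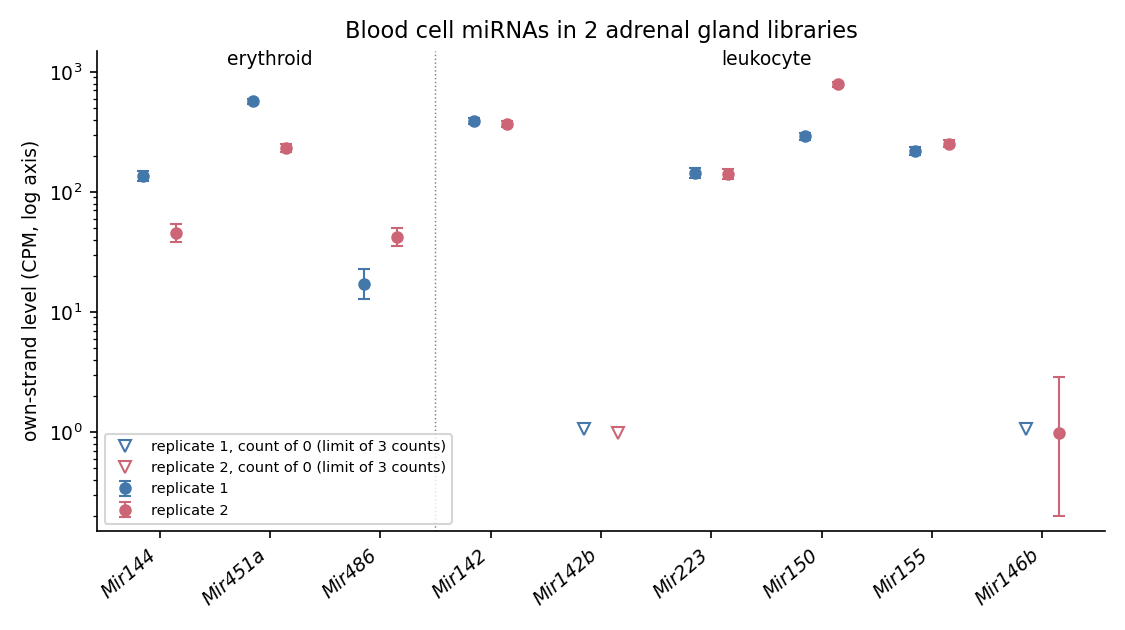
Own-strand level of each member in CPM on a log axis, replicate 1 in blue and replicate 2 in red, with 95% exact Poisson intervals; open triangles stand at the limit that a count of 0 allows. Mir144 and Mir451a sit lower in replicate 2, Mir486 and Mir150 sit higher, and Mir142 and Mir223 nearly coincide.

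The erythroid members went in different directions. Mir451a (ENSMUSG00000070065.1), the most abundant miRNA of mature red cells, had 1612 reads in replicate 1 and 720 in replicate 2. These are 566.9 CPM (539.5 to 595.2) and 233.8 CPM (217.0 to 251.5). Replicate 1 was the higher library by 2.42-fold, and the intervals lay apart. The log2 ratio of replicate 2 over replicate 1 was -1.28 (-1.41 to -1.15), with an adjusted p of 1.9e-93 in the exact binomial test. This test weighs the 2 libraries against counting error only, and 59.0% of the 444 genes with at least 10 reads over both libraries passed it at 0.05. None of the p-values of that test given for single members includes the spread between animals.

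Mir144 (ENSMUSG00000065401.1) lies at chr11:78073005-78073070 on the plus strand, 99 bases before Mir451a, with no host gene in the annotation. It had 386 reads (135.7 CPM) in replicate 1 and 141 reads (45.8 CPM) in replicate 2. It was thus lower in replicate 2 as well, with a log2 ratio of -1.56 (-1.86 to -1.29) and an adjusted p of 2.6e-31 in the exact binomial test. Reads of Mir451a per read of Mir144 were 4.18 (3.73 to 4.68) in replicate 1 and 5.11 (4.26 to 6.16) in replicate 2. The intervals of these ratios overlapped, so a change in the balance of the 2 neighbours was not detectable at this depth.

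Mir486 (ENSMUSG00000070084.3), abundant in red cells and also known from skeletal and cardiac muscle, went the other way. It lies at chr8:23142555-23142682 in an intron of Ank1, the gene of the red cell membrane protein ankyrin, on the same strand. It had 49 reads (17.2 CPM, 12.7 to 22.8) in replicate 1 and 130 reads (42.2 CPM, 35.3 to 50.1) in replicate 2. The log2 ratio was 1.28 (0.81 to 1.80), with an adjusted p of 6.0e-08 in the exact binomial test. Mir486 made up 2.39% of the erythroid reads in replicate 1 and 13.1% in replicate 2. Per read of Mir451a there were 0.0304 reads of Mir486 in replicate 1 and 0.181 in replicate 2. Mir3107 overlaps Mir486 on the other strand, and no sequence of either was at hand. Whether a read can fit both was therefore not checked. A read fitting both would count for neither, which leaves the level of Mir486 and its ratios uncertain.

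Beside Mir486, 3 of 9 striated muscle markers were also higher in replicate 2, Mir206, Mir499 and Mir133b. They are 3 of the 4 markers with enough reads for the exact binomial test, against 28.6% of all genes tested, and Mir208b was not called. The summed level of the list was 929.1 CPM in replicate 1 and 3337 CPM in replicate 2. Nearly all of it was Mir206, a skeletal muscle miRNA, at 918.5 and 3305 CPM. Mir499, known from heart and slow muscle, was at 4.22 and 19.8 CPM. Mir133b had only 2 reads (0.703 CPM) in replicate 1, under the limit of 3 counts, and 14 reads (4.55 CPM) in replicate 2. Mir133a-2 was at 0 in both libraries and Mir1a-1, Mir1a-2 and Mir133a-1 at 4 reads or fewer. The Mir1a genes share 1 mature sequence, as do the Mir133a genes, and a read common to both copies counts for neither, so these low counts do not show absence. Mir486 had 0.0188 reads per read of Mir206 in replicate 1 and 0.0128 in replicate 2. The part of muscle RNA in the Mir486 result was not tested.

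As a group the erythroid members held 0.0720% of the assigned reads in replicate 1 (0.0689 to 0.0752) and 0.0322% in replicate 2 (0.0302 to 0.0342). Mir451a made up 78.7% of these reads in replicate 1 and 72.7% in replicate 2, so the sum followed Mir451a. The median log2 ratio of the 3 members was -1.28, against 0.073 over all 444 genes tested. That median is the ratio of Mir451a itself. Mir144, 99 bases from it, was lower, and Mir486 was at 1.28, so the median shows no common direction. In whole tissue, fewer cells of a type and less RNA per cell cannot be told apart.

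Among the leukocyte members, Mir142 and Mir223 stood at nearly the same level in both libraries. Mir142 (ENSMUSG00000105196.1), in an intron of the noncoding gene Mir142hg, had 1110 reads (390.3 CPM) in replicate 1 and 1132 reads (367.5 CPM) in replicate 2. Its log2 ratio was -0.087 (-0.21 to 0.034), with an adjusted p of 0.226 in the exact binomial test. With TMM factors, which rescale the totals, the log2 ratio was -0.15 and the adjusted p of the exact binomial test 0.0237. Over all alternatives of this gene the adjusted p ran from 0.0237 to 1. With Mir122 left out of the totals the log2 ratio had the other sign, 0.019.

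Mir223 (ENSMUSG00000076066.1), the myeloid member, lies at chrX:96242817-96242926 in an exon of the noncoding gene F630028O10Rik. It had 409 reads (143.8 CPM) in replicate 1 and 433 reads (140.6 CPM) in replicate 2. Its log2 ratio was -0.033 (-0.23 to 0.17), with an adjusted p of 0.819 in the exact binomial test, and 0.072 with Mir122 left out of the totals. Reads of Mir223 per read of Mir142 were 0.368 (0.328 to 0.413) and 0.383 (0.342 to 0.428). The intervals of these ratios overlapped.

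Mir150 (ENSMUSG00000065495.1), known from mature B, T and natural killer cells, was the leukocyte member that differed most. It lies at chr7:45121757-45121821 outside any annotated gene, and the nearest miRNA gene, Mir5121, is 5096 bases away on the other strand. It had 830 reads (291.9 CPM, 272.3 to 312.4) in replicate 1 and 2422 reads (786.3 CPM, 755.3 to 818.3) in replicate 2. The level was 2.69-fold higher in replicate 2, a log2 ratio of 1.43 (1.32 to 1.55), with an adjusted p of 2.3e-151 in the exact binomial test. Mir5121 was at 37.3 CPM in replicate 1 and 39.6 CPM in replicate 2.

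Mir155 (ENSMUSG00000065397.1) lies at chr16:84714140-84714204 in an exon of Mir155hg, the noncoding transcript it is cut from. It had 621 reads (218.4 CPM) in replicate 1 and 779 reads (252.9 CPM) in replicate 2. The log2 ratio was 0.21 (0.058 to 0.37), with an adjusted p of 0.0119 in the exact binomial test. The call was lost without strand (log2 ratio 0.14, adjusted p 0.130) and with TMM factors (0.15, adjusted p 0.0989) in the same exact test. Over all alternatives the adjusted p of Mir155 ran from 1.0e-04 to 1.

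Mir146b (ENSMUSG00000070127.2), at chr19:46342762-46342870 in an intron of Mfsd13a, had 0 reads in replicate 1 and 3 reads (0.974 CPM) in replicate 2. Both values are at or under the limit of 3 counts, so no fold is given. Mir146, whose mature miR-146a-5p carries the same seed, had 1021 and 1201 CPM, a log2 ratio of 0.23 (0.16 to 0.31) and an adjusted p of 1.5e-10 in the exact binomial test.

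**Figure D2:**
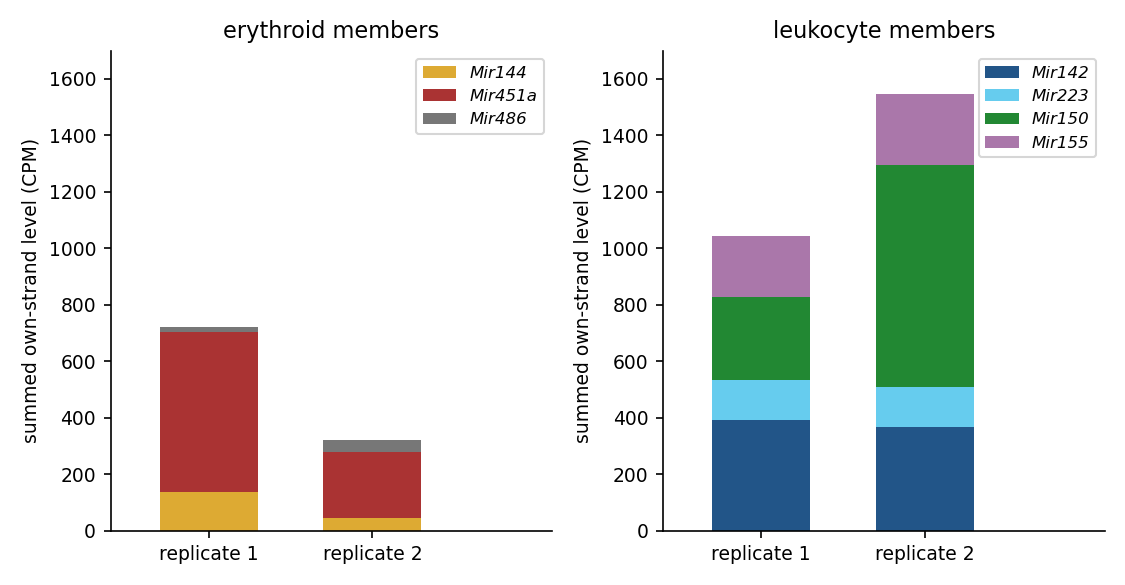
Summed own-strand level of the erythroid (left) and leukocyte (right) members in each library, in CPM, with each bar divided by gene; Mir142b and Mir146b are too low to show. The erythroid bar is shorter in replicate 2 and mostly Mir451a in both libraries, and the leukocyte bar is taller in replicate 2 through its Mir150 part.

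The leukocyte members held 0.104% of the assigned reads in replicate 1 (0.101 to 0.108) and 0.155% in replicate 2 (0.150 to 0.159). Mir150 made up 27.9% of these reads in replicate 1 and 50.8% in replicate 2. Without Mir150, a setting added after its values were seen, the mean share of the others was 0.0757% of assigned reads, with an SD between libraries of 6.7e-04 percentage points. Erythroid reads per leukocyte read were 0.689 in replicate 1 and 0.208 in replicate 2. Without strand these ratios were 0.208 and 0.0387, and without Mir451a and Mir150, the most abundant member of each list, they were 0.203 and 0.115. Without Mir486 and Mir150, also a setting added later, they were 0.934 and 0.367. Without strand the ratio holds only Mir144 over Mir223, Mir150, Mir155 and Mir146b, since the other members are then listed at 0. Replicate 1 had the higher ratio in each of the settings above. They all use subsets of the same reads, so this gives no separate support. The median log2 ratio of the 4 leukocyte members tested was 0.089.

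Set against Mir142 in the same library, where the totals cancel, the members split in the same way. Mir142 itself had a log2 ratio of -0.087, so this split follows from the ratios above and is no separate support. Mir451a had 1.45 reads per read of Mir142 (1.34 to 1.57) in replicate 1 and 0.636 (0.579 to 0.699) in replicate 2. Mir144 had 0.348 and 0.125 reads per read of Mir142. Mir150 had 0.748 (0.683 to 0.819) in replicate 1 and 2.14 (1.99 to 2.30) in replicate 2. Mir155 had 0.559 (0.506 to 0.618) and 0.688 (0.627 to 0.755). Mir451a was thus above Mir142 in replicate 1 and below it in replicate 2, and Mir150 the reverse. These ratios do not use the totals, which hold the reads of Mir122. With Mir122 left out of the totals, the log2 ratios between the libraries were -1.46 for Mir144, -1.17 for Mir451a, 1.39 for Mir486 and 1.53 for Mir150.

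**Figure D3:**
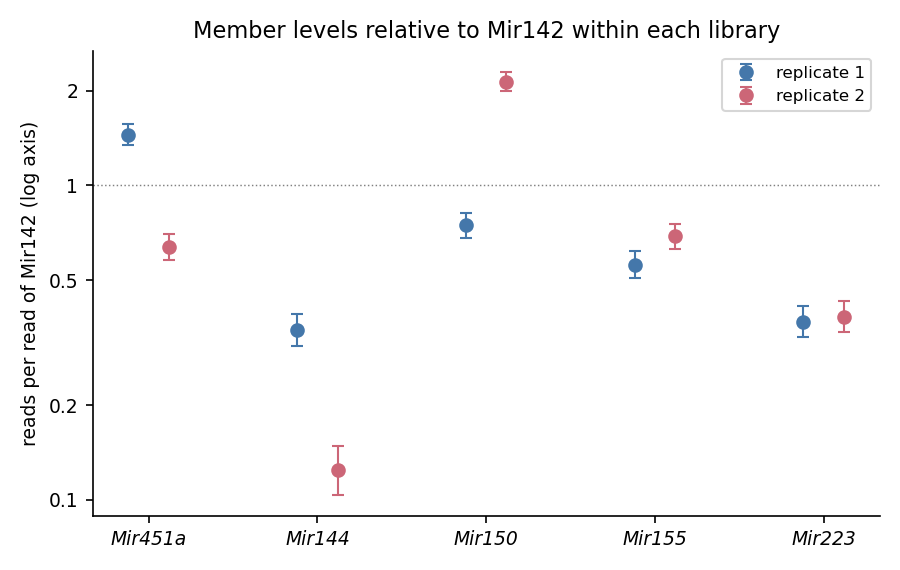
Reads of each member per read of Mir142 in the same library, on a log axis, replicate 1 in blue and replicate 2 in red, with 95% exact intervals from the counts. Mir451a and Mir150 change sides of the dotted line at 1 between the libraries, and Mir223 stays at 0.368 and 0.383.

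Of the 9 members, 7 had at least 10 reads over both libraries and were tested, and 5 of them were called at an adjusted p under 0.05 in the exact binomial test. Over all 444 genes tested the same test called 59.0%. Higher in replicate 2 were Mir486, Mir150 and Mir155, 3 of 7, against 28.6% of all genes tested. Lower in replicate 2 were Mir144 and Mir451a, 2 of 7, against 30.4%. Of the 7 tested, 4 were called and differed more than 2-fold, Mir144, Mir451a, Mir486 and Mir150, against 17.3% of all genes tested. The median absolute log2 ratio over all genes tested was 0.56, and 41 genes differed more than Mir144, 56 more than Mir150, 65 more than Mir486 and 68 more than Mir451a. The test sets these 2 libraries against counting error only. With a negative binomial model in edgeR's exact test, whose common spread was estimated from the same pair of libraries, 0 of the 7 members were called and 0 had an unadjusted p under 0.05. The smallest unadjusted p of that exact test among them was 0.0648, for Mir144.

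**Figure D4:**
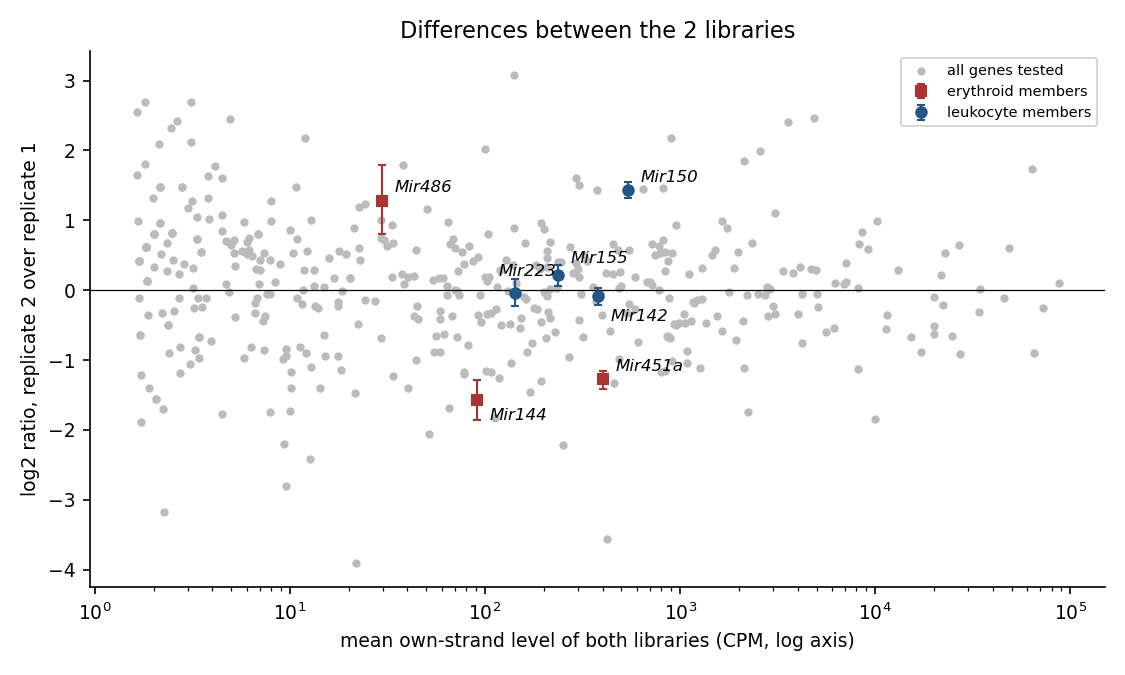
Log2 ratio of replicate 2 over replicate 1 against the mean own-strand level in CPM (log axis) for the 444 genes tested, with erythroid members as red squares and leukocyte members as blue circles, and 95% exact intervals. The members lie within the cloud of all genes, Mir144 and Mir451a below 0, Mir486 and Mir150 above it, and Mir142, Mir223 and Mir155 near it.

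The strand of counting decided whether 3 of the members had any value. Without strand Mir451a, Mir486 and Mir142 were listed at 0 in both libraries, while Mir144, Mir223, Mir155 and Mir146b had the same counts as on their own strands and Mir150 had 830 and 2424. On the opposite strand Mir142b had 1110 and 1132 reads, exactly the own-strand reads of Mir142, and Mir451b had the 1612 and 720 of Mir451a. On their own strands Mir142b and Mir451b had 0 reads in both libraries. This allows Mir142b up to 0.270% of the reads of its pair in replicate 1 and 0.265% in replicate 2, and Mir451b up to 0.186% and 0.417%. Mir3107, which overlaps Mir486 on the other strand, had 2 of the 51 reads of that pair in replicate 1 (3.92%, 0.478 to 13.5) and 7 of 137 in replicate 2 (5.11%, 2.08 to 10.2). The sequences of this pair were not compared. Reads that fit both genes would be missing from these counts, so the shares do not divide all reads of the pair.

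Other miRNAs linked to blood cells, most of them expressed in many other cell types too, were read from a separate list of 33 genes. Of these 31 were tested in the exact binomial test, with 11 higher in replicate 2 and 13 lower, against 28.6% and 30.4% of all genes tested, and 7 not called. The median log2 ratio of the list was 0.026, against 0.073 over all genes tested. Mir342, known from lymphocytes, had 1204 CPM in replicate 1 and 1802 CPM in replicate 2, a log2 ratio of 0.58 with an adjusted p of 7.2e-78 in the exact binomial test. Per read of Mir150 there were 4.12 reads of Mir342 (3.82 to 4.45) in replicate 1 and 2.29 (2.18 to 2.40) in replicate 2. Mir181a-1 and Mir181b-2, from loci active in lymphocyte precursors, had log2 ratios of -0.54 and 0.28, both called. Mir181b-1, the neighbour of Mir181a-1, had 0.57 and Mir181a-2 had 0.52, neither of them called. Each of these has a copy in the genome with the same mature sequence, and a read common to both copies counts for neither, which leaves their levels uncertain. Mir15a, a repressor of the survival gene Bcl2, was lower in replicate 2 with a log2 ratio of -1.74, the lowest of the list beside Mir96. Mir96 also had -1.74 (-2.91 to -0.77), from 35 reads in replicate 1 and 11 in replicate 2. Mir16-1, the neighbour of Mir15a, had 0.11. It too has a copy with the same mature sequence, Mir16-2, so its level is uncertain for the same reason. Mir21a, raised in many activated cells, was higher with the highest log2 ratio of the list, 0.98.

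Platelets and their precursors, the megakaryocytes, are known for Mir223, Mir126a, Mir191 and the Mir199a genes. Of those 5 genes 4 were tested, and they did not move as 1 group. Mir126a, which endothelium also expresses, had a log2 ratio of -0.90, Mir191 had 0.12, and Mir223 and Mir199a-2 were not called. Mir199a-1 was listed at 0 in both libraries, but it shares its mature sequence with Mir199a-2, so this does not show absence.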

How the data were processed

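MicroRNA libraries of short fragments were made from total RNA of 2 adrenal gland samples, per the labels' protocols. The authors deposited raw read counts per miRNA gene on mm10 annotated by GENCODE M21, as the descriptions beside the files state. The sources used here give neither aligner nor counter. Each file holds 3 count columns, which the values show to be without strand, own strand and opposite strand. Own-strand counts were the main ones, and the 4 rows naming no gene stayed out of totals: 26.4% and 32.0% of reads were unmapped, 27.5% and 25.9% mapped to several places, and 8.22% and 7.54% lay outside genes. All 2202 identifiers matched the annotation.

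CPM was computed over assigned reads. Log2 ratios added 0.5 counts to each library. Each gene with 10 or more counts in the libraries together was compared by a binomial test, exact and two-sided. P-values were adjusted over all those genes after Benjamini and Hochberg and called at 0.05. The test and intervals were checked on simulated data. Nothing states separate cultures or litters, so p-values measure only the difference between these samples. The members and lists were chosen with earlier results of these data known. Named genes were the members, genes overlapping them, miRNA genes within 10000 bp, and the fixed lists. The list entries Mir146a and Mir92a-1 were matched as Mir146 and Mir92-1. Alternatives were counts without strand, TMM and DESeq2 factors, an exact negative binomial test with the common spread of both libraries, other count minimums and pseudocounts, Mir122 left out, other denominators and single libraries. Tools were Python 3.11.15 with scipy 1.17.1, pandas 2.3.3, matplotlib 3.10.9 and numpy 2.4.6, R 4.3.3 with DESeq2 1.42.0 and edgeR 4.0.16, and RNAfold 2.7.2.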

Additional observations from a re-analysis of the deposited data

Results flagged for a closer look

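Reads on the strand opposite a member, outside the main counts, exceeded 3 over both libraries for 2 members. Mir142b had 1110 opposite-strand reads in replicate 1 and 1132 in replicate 2, each equal to the own-strand count of Mir142. Mir486 had 2 and 7, each equal to the own-strand count of Mir3107.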

How the results depend on the processing

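The erythroid share of 0.0521% was 0.0113% without strand, 0.0192% of all reads in the file and 0.0120% without Mir451a. The leukocyte share of 0.130% was 0.0466% of all reads in the file and 0.0757% without Mir150, its most abundant member. The settings by gene name were added after the data were seen: the erythroid share without Mir486, the leukocyte share without Mir150, and their ratio without both genes. In single libraries the erythroid share ran from 0.0322% to 0.0720%, the leukocyte share from 0.104% to 0.155%, and erythroid reads per leukocyte read from 0.208 to 0.689. Without strand 2 members, Mir144 and Mir150, were called against 5. Mir451a and Mir486 lost their calls by construction, since they are then listed at 0. Mir155 kept its counts and lost its call, with an adjusted p of 0.130 in the exact binomial test. The exact negative binomial test of edgeR, at a coefficient of variation of 0.393 estimated from the same 2 libraries, called 2 genes against 262, with 24 at an unadjusted p under 0.05, and 0 members. It calls few genes by its construction. With Mir122 left out, the log2 ratios of Mir142 (0.019) and Mir223 (0.072), neither of them called, changed sign. Of 46 alternatives of single members, 36 kept direction and side of the threshold. Log2 ratios need both libraries, so none could be recomputed with 1 left out. No paired analysis was possible because there was 1 group. Counting error limits Mir146b and Mir142b most, both at 3 reads or fewer.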
